A study of Mus musculus with 4 samples.

Results

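Expression of 9 epithelial identity genes (*Cdh1*, *Epcam*, *Krt8*, *Krt18*, *Trp63*, *Cldn6*, *Cldn7*, *Esrp1* and *Grhl2*) was examined in bulk RNA-Seq of nasal process (NP) tissues from E11.5 mouse embryos. The 9 genes were picked by symbol for their known roles in epithelium, and all 9 were among the 13577 genes with values and among the 12462 genes tested. All 9 had at least 10 reads in each of the 4 libraries, so every epithelial gene picked was present in the tissue. In all, 2 groups of 2 libraries were compared. Control embryos carried *P0-Cre* without the transgene, and ca-*Acvr1(A11)* embryos, called mutants, carried *P0-Cre* together with a floxed transgene for a constitutively active form of the BMP receptor ACVR1. *P0-Cre*, which both groups shared, was used to switch on the transgene in the neural crest lineage, which includes cranial neural crest cells and their mesenchyme. Whether recombination also took place in the surface epithelium was not measured here. Embryos were on a mixed background, both sexes were combined, and A11 is 1 transgenic line. The labels do not say whether a library came from 1 embryo, from pooled embryos or from the same embryos as its neighbour, so p-values measure only the spread between these samples, which may be technical.

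The labels contradict each other on the groups. Libraries titled control have a genotype entry with the transgene, and libraries titled mutant have *P0-Cre* alone. The titles were used here, and every direction given would turn round if the genotype entries were right. *Acvr1* was at 21.5 and 23.1 CPM in controls and 24.1 and 12.6 CPM in mutants, so the groups overlapped. CPM is the number of reads on a gene after scaling every library to the same total. Reads of this kit come from the 3′ end of a transcript, and a transgene need not carry the 3′ end of *Acvr1*, so this level does not check the labels. Libraries held between 1956831 and 2408827 reads, and 1 read was worth between 0.415 and 0.511 CPM.

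At this stage the nasal processes are swellings of neural crest mesenchyme covered by surface ectoderm, which thickens around the nasal pit into the olfactory epithelium. Epithelial cells are held together by the calcium-dependent cadherin E-cadherin (*Cdh1*) and by EpCAM (*Epcam*), are sealed by claudins, and carry keratin filaments. Grainyhead-like 2 (*Grhl2*) and p63 (*Trp63*) switch on epithelial genes, ESRP1 (*Esrp1*) directs the epithelial pattern of splicing, and the SNAIL, TWIST and ZEB families of mesenchymal transcription factors can repress epithelial genes through E-box sequences in their promoters.

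Promoter windows were available for 5 of the 9 genes, as 6 windows of 250 bases before a transcription start. They are shown because the SNAIL and ZEB repressors read a short E-box, CACCTG or its reverse complement CAGGTG, which was searched as exactly these letters on both strands. Of 32851 mouse promoter windows of the same length, 17.2% held at least 1 such E-box and 2.06% held at least 2. Of the 6 windows of the epithelial genes, 5 held at least 1. Sequences are from RefSeq on GRCm38.p6, written 5′ to 3′ on the strand of the gene, with E-boxes in capitals. The windows are chr17:87635729-87635978 on the plus strand for *Epcam*, chr17:23679115-23679364 on the plus strand for *Cldn6*, chr11:69965171-69965420 on the plus strand for the second start of *Cldn7*, chr15:102027966-102028215 on the plus strand for *Krt18* and chr15:102004343-102004592 on the minus strand for *Krt8*.
Epcam: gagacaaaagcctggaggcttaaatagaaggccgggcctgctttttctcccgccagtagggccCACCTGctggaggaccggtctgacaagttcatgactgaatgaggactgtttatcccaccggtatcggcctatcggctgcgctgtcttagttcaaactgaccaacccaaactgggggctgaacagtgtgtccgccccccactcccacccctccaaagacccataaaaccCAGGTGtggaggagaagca
Cldn6: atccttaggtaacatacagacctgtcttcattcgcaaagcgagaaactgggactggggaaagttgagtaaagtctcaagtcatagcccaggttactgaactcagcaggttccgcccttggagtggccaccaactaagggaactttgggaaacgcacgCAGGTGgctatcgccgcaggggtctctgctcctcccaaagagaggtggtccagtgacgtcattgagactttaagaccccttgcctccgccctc
Cldn7: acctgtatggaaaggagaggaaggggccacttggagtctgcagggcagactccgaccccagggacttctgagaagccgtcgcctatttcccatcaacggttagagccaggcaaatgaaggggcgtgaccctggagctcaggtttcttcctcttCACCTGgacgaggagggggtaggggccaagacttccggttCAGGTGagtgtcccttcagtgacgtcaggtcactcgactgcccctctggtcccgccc
Krt18: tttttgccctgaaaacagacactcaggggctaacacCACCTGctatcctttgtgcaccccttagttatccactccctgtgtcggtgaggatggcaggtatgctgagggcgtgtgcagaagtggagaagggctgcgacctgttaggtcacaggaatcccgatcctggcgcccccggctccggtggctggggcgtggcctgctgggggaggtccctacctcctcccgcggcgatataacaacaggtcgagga
Krt8: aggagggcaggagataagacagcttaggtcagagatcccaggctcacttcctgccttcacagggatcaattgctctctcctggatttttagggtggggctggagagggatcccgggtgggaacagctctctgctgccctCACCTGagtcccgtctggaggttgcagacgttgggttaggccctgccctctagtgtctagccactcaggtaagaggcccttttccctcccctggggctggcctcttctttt

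Counted from the first letter of the motif, *Epcam* had E-boxes 187 and 19 bases before its RefSeq start, and the *Cldn7* window shown had them 97 and 57 bases before. Single E-boxes lay 93 bases before the start of *Cldn6*, 214 before that of *Krt18* and 111 before that of *Krt8*. GENCODE, from which the gene coordinates given with the values are taken, places some starts elsewhere, and by its coordinates the E-boxes of *Cldn6*, *Cldn7* and *Krt8* lie inside the gene and those of *Epcam* and *Krt18* before it. The other window of *Cldn7*, which precedes the start further upstream, held none of these letters. The core of the site bound by Grainyhead-like factors, ACCGGT, reads the same on both strands and was in 1.86% of all windows. Among the 6 windows it was found in that of *Epcam*, 174 and 131 bases before the start, where it does not overlap an E-box. A match of letters is a description of the sequence and shows no binding.

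Among the cell adhesion genes, *Cdh1* and *Epcam* were higher in ca-*Acvr1(A11)* NP tissues and passed the test, and both claudins were at higher CPM in both ca-*Acvr1(A11)* libraries than in either control library without passing it. In bulk tissue, more RNA per epithelial cell and more epithelial cells among the cells collected cannot be told apart. The values were taken from 1 fit over all 12462 genes with limma on log2(CPM + 1), with Benjamini-Hochberg adjustment at 0.05, and fold changes are ca-*Acvr1(A11)* over control on that scale, which understates the change of low genes.

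*Cdh1* (chromosome 8, 106603351 to 106670246, plus strand, GRCm38) was at 77.2 and 59.5 CPM in control replicates and 121 and 114 CPM in mutant replicates, from 151, 134, 291 and 243 reads. Both ca-*Acvr1(A11)* libraries stood above both control libraries. The mean went from 68.3 ± 12.5 to 117 ± 5.02 CPM (SD, n = 2), a ratio of 1.72. *Cdh1* rose with a log2 fold change of 0.78 (SE 0.17, 95% interval 0.44 to 1.12, limma adjusted p = 0.0145). Adjusted p was 0.0116 by edgeR and 0.223 by DESeq2 on recovered reads, and over 14 alternatives it ran from 4.58e-05 to 0.448, with *Cdh1* past the threshold in 10. Without ca-*Acvr1(A11)* replicate 1 the adjusted p was 0.103, and without control replicate 2 it was 0.0955, both from limma.

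*Epcam* (chromosome 17, 87635979 to 87651129, plus strand), which encodes a homophilic adhesion molecule of epithelial membranes, was at 59.3 and 70.6 CPM in the 2 controls against 110.4 and 103.4 CPM in the 2 mutants, from 116, 159, 266 and 221 reads. The groups were again apart. Its mean went from 64.9 ± 7.99 to 107 ± 4.96 CPM (SD, n = 2), a ratio of 1.65. *Epcam* rose with a log2 fold change of 0.72 (SE 0.16, 95% interval 0.38 to 1.05, limma adjusted p = 0.0264). Adjusted p was 0.0221 by edgeR and 0.406 by DESeq2, with a range of 0.00253 to 0.448 over 14 alternatives and a value under the threshold in 10 of them. Leaving out ca-*Acvr1(A11)* replicate 1 gave an adjusted p of 0.203, and leaving out replicate 2 gave 0.0841, both from limma.

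The 2 adhesion genes had opposite orders within the control group. *Cdh1* was higher in control replicate 1 and *Epcam* in control replicate 2, so that reads on *Cdh1* per read on *Epcam* were 1.30 and 0.843 in the control libraries. In the ca-*Acvr1(A11)* libraries this ratio was 1.09 and 1.10, between the control values.

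Claudins, the membrane proteins that set the permeability of tight junctions, were represented by *Cldn6*, a claudin of embryonic epithelia, and *Cldn7*. *Cldn6* (chromosome 17, 23679249 to 23682446, plus strand) was at 29.6 and 32.9 CPM in the 2 controls against 45.3 and 45.4 CPM in the 2 mutants. The groups did not overlap, and the means were 31.2 ± 2.27 and 45.3 ± 0.0989 CPM (SD, n = 2). Its log2 fold change was 0.52 (SE 0.20, 95% interval 0.11 to 0.93), with an unadjusted p of 0.0141 and an adjusted p of 0.340 from limma. *Cldn7* (chromosome 11, 69964779 to 69967885, plus strand) was at 6.64 and 5.77 CPM in the 2 controls against 10.4 and 11.7 CPM in the 2 mutants, from only 13, 13, 25 and 25 reads. The groups were apart here too, with means of 6.21 ± 0.617 and 11.04 ± 0.933 CPM (SD, n = 2). Its log2 fold change of 0.74 was close to that of *Cdh1* and *Epcam*, with an SE of 0.33, a 95% interval of 0.05 to 1.43 and a limma adjusted p of 0.472. The unadjusted p of *Cldn7* was 0.0357 from limma, so it missed the threshold only after adjustment over all genes tested. At this depth the size of its change remained uncertain, as the width of the interval shows.

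**Figure D1:**
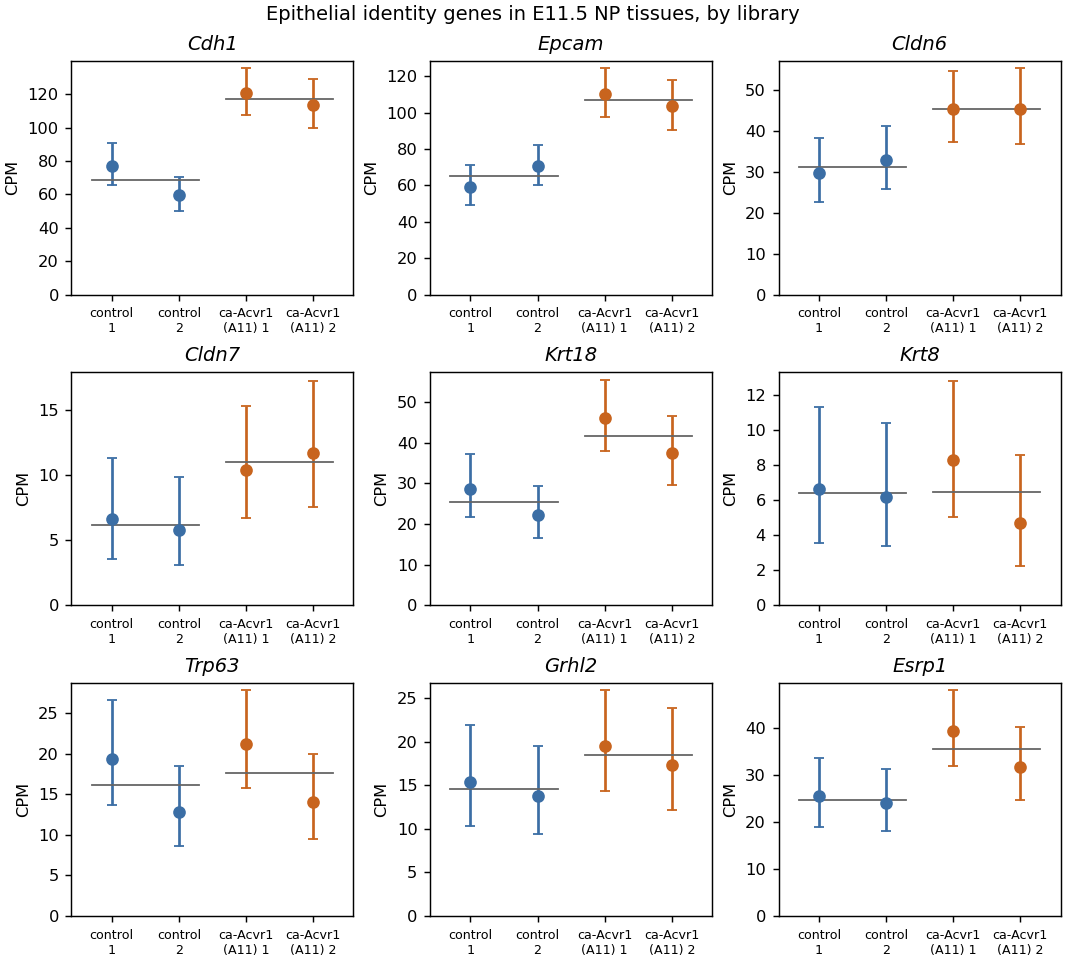
CPM of each of the 9 genes (vertical axes, starting at 0) in control replicates 1 and 2 (blue) and ca-*Acvr1(A11)* replicates 1 and 2 (orange). Bars are exact 95% Poisson intervals of the reads, which cover counting error only, and grey lines are group means. In 7 panels both orange points lie above both blue ones, and in those of *Krt8* and *Trp63* the groups overlap.

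The keratins KRT8 and KRT18 pair into the filaments of simple epithelia, and their genes are neighbours on chromosome 15, 23.7 kb apart and on opposite strands. *Krt18* (102028180 to 102032027, plus strand) was at 28.6 and 22.2 CPM in control replicates and 46.1 and 37.4 CPM in mutant replicates, from 56, 50, 111 and 80 reads. The groups were apart, with means of 25.4 ± 4.54 and 41.8 ± 6.11 CPM (SD, n = 2). The log2 fold change of *Krt18* was 0.70 (SE 0.22, 95% interval 0.25 to 1.15), with an unadjusted p of 0.00347 and an adjusted p of 0.183 from limma. It passed the threshold under 1 of 14 alternatives, without control replicate 1 (adjusted p = 0.0208 from limma).

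*Krt8* (101996698 to 102004482, minus strand) was at 6.64 and 6.22 CPM in the 2 controls against 8.30 and 4.68 CPM in the 2 mutants. Both control values lay between the ca-*Acvr1(A11)* values, and the means were 6.43 ± 0.303 and 6.49 ± 2.56 CPM (SD, n = 2). The log2 fold change was -0.03 with a 95% interval of -0.80 to 0.74, which also holds the fold change of *Krt18*, and it rests on 10 to 20 reads per library. Reads on *Krt8* per read on *Krt18* were 0.232 and 0.280 in controls and 0.180 and 0.125 in mutants. This ratio was lower in both ca-*Acvr1(A11)* libraries. It was picked after the values were seen and was not tested, and an exact permutation test of 2 libraries against 2 cannot give a p under 0.333. *Krt8* has 1 pseudogene annotated under its own name, to which some of its reads could be assigned. Pseudogenes under other names were not counted for either keratin.

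Among the regulators, *Trp63* (chromosome 16, 25683763 to 25892102, plus strand), whose product p63 is the master regulator of stratified epithelium, was at 19.4 and 12.9 CPM in control replicates and 21.2 and 14.0 CPM in mutant replicates. The groups overlapped, and each held 1 higher and 1 lower library. The means were 16.1 ± 4.63 and 17.6 ± 5.04 CPM (SD, n = 2), with a log2 fold change of 0.12 (95% interval -0.47 to 0.70). Its sign turned when control replicate 2 or ca-*Acvr1(A11)* replicate 1 was left out, with a log2 fold change of -0.16 each time. Coding transcripts of *Trp63* have 5 distinct annotated 3′ ends, and all isoforms were counted together as 1 gene.

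*Grhl2* (chromosome 15, 37233036 to 37363569, plus strand), an activator of *Cdh1* and claudin genes in epithelia, was at 15.3 and 13.8 CPM in the 2 controls against 19.5 and 17.3 CPM in the 2 mutants. The groups did not overlap, but the distance between their means, 14.5 ± 1.11 and 18.4 ± 1.55 CPM (SD, n = 2), was small. Its log2 fold change was 0.32 (SE 0.27, 95% interval -0.23 to 0.87, limma adjusted p = 0.786). *Esrp1* (chromosome 4, 11331933 to 11386783, minus strand), which encodes an RNA-binding protein that directs epithelial exons, was at 25.6 and 24.0 CPM in the 2 controls against 39.4 and 31.8 CPM in the 2 mutants. Both ca-*Acvr1(A11)* libraries were above both control libraries, with means of 24.8 ± 1.12 and 35.6 ± 5.39 CPM (SD, n = 2). The log2 fold change of *Esrp1* was 0.50 (SE 0.22, 95% interval 0.05 to 0.95, limma adjusted p = 0.448). Its last exon overlaps a long noncoding RNA gene on the other strand, and reads from 3′ ends carry no measure of the splicing that ESRP1 controls.

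Of the 9 genes, 2 passed the test, both higher in ca-*Acvr1(A11)* libraries, against 0.305% of the 12462 genes tested. None passed it in the lower direction, against 0.594% of all genes, and none was lower at an unadjusted p under 0.05. edgeR called the same 2 genes, *Cdh1* and *Epcam*, against 0.384% of the 10151 genes it tested, and DESeq2 called 0, with 3 of the 9 at an unadjusted p under 0.05. At an unadjusted p under 0.05 in limma, 6 of the 9 were higher, against 5.42% of all genes. Both ca-*Acvr1(A11)* libraries were above both control libraries for 7 of the 9, against 21.9% of all genes, and below them for 0, against 16.8%. Fold changes were positive for 8 of the 9, against 6752 of the 12462 genes tested. Their median was 0.52 on the log2 scale, beside 0.03 for all genes tested, and scaling by relative log expression gave 0.50 and 0.0013. These counts describe a hand-picked list that was known to be higher when it was chosen, and they are not independent evidence of its direction.

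**Figure D2:**
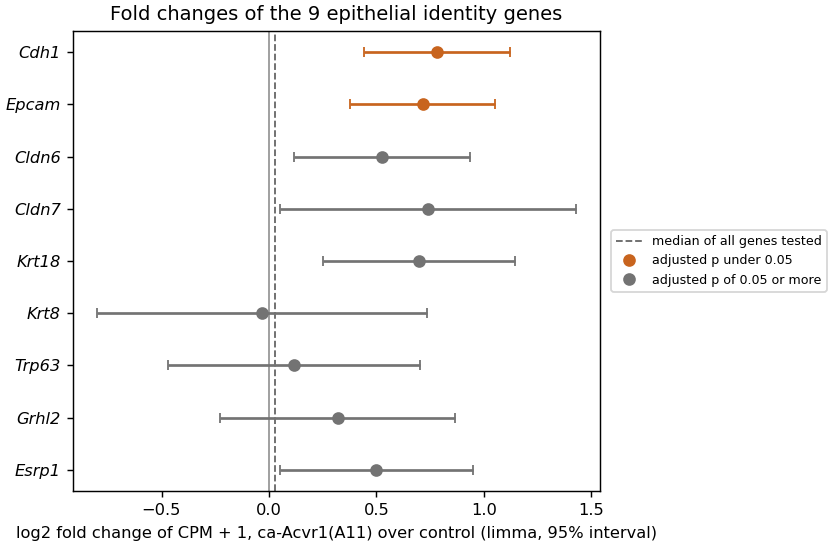
Log2 fold change of CPM + 1 (horizontal axis, ca-*Acvr1(A11)* over control, limma) of the 9 genes with 95% intervals. Orange marks the 2 genes with an adjusted p under 0.05, and the dashed line is the median of all genes tested, 0.03. The intervals of *Krt8*, *Trp63* and *Grhl2* include 0.

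Summed over the 9 genes, the level was 268 and 248 CPM in the 2 controls against 421 and 379 CPM in the 2 mutants, from 525, 558, 1015 and 811 reads. Every ca-*Acvr1(A11)* sum was above every control sum, and the ratio of the means was 1.55. Without *Cdh1* and *Epcam* the sum was 132 and 118 CPM in control replicates and 190 and 162 CPM in mutant replicates, with a ratio of 1.41. With each library left out in turn, 7 of the 9 log2 fold changes stayed positive and those of *Krt8* and *Trp63* changed sign, from -0.39 to 0.33 and from -0.16 to 0.40.

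**Figure D3:**
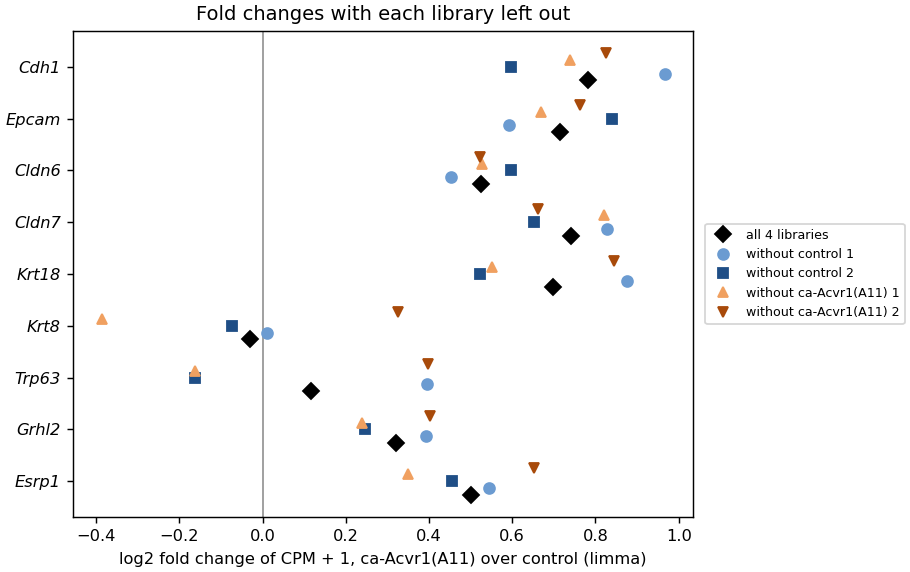
Log2 fold change of CPM + 1 (horizontal axis, ca-*Acvr1(A11)* over control, limma) of each gene with all 4 libraries (black) and with each library left out (coloured symbols). *Cdh1* ranged from 0.60 to 0.97 and *Epcam* from 0.59 to 0.84, while the symbols of *Krt8* and *Trp63* fall on both sides of 0.

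Other epithelial genes gave mixed values. They were written as 5 lists by role, of which 73 genes had values and 70 were tested. In limma, 1 of the 70 passed the test, higher (0.305% of all genes did). At an unadjusted p under 0.05, 16 were higher and 1 lower, against 676 and 514 of the 12462 genes tested. Fold changes were positive for 43 of the 70, against 6752 of all genes tested. These shares of all genes are the reference for each list of genes or markers below. The median log2 fold change of the 70 was 0.26, between those of all genes and of the 9 identity genes. The gene that passed was *Perp*, which encodes a tetraspan protein of desmosomes and is also a known target of p53 and p63. *Perp* was at 25.0 and 19.1 CPM in the 2 controls against 45.7 and 43.5 CPM in the 2 mutants, with the groups apart. It rose with a log2 fold change of 0.99 (SE 0.22, adjusted p = 0.0171 from limma, 0.0150 from edgeR and 0.466 from DESeq2). Without control replicate 2, or ca-*Acvr1(A11)* replicate 1 or 2, the limma adjusted p of *Perp* was 0.0870, 0.104 and 0.0518.

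The lists differed in how they compared with the identity genes. The other desmosome genes did not pass the test, and 7 of the 8 tested members of the list had positive fold changes, with a median of 0.43. Hemidesmosome and basement membrane genes, which anchor the epithelium to the matrix, had a median of 0.48 with 7 of 8 positive. None of those 8 was called by limma, edgeR or DESeq2. At an unadjusted p under 0.05 in limma, 3 were higher, against 5.42% of all genes. The most abundant was *Itga6*, the laminin receptor subunit of hemidesmosomes, at 139 and 98.6 CPM in control replicates and 168 and 156 CPM in mutant replicates (log2 fold change 0.46, limma adjusted p = 0.275), followed by *Dst* with a log2 fold change of -0.02 and *Fras1* with 0.32.

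Junction genes had 16 of 28 positive fold changes, near the share over all genes (6752 of 12462), and a median of 0.25. None was called by limma, edgeR or DESeq2. At an unadjusted p under 0.05 in limma, 5 were higher, against 5.42% of all genes. *Ctnnb1*, which encodes the β-catenin that binds E-cadherin and also serves in WNT signaling of all cell types, was at 2283 and 2257 CPM in the 2 controls against 2151 and 2338 CPM in the 2 mutants, with overlapping groups and a log2 fold change of -0.02. The α-catenin gene *Ctnna1* had a log2 fold change of -0.19. The partners of *Cdh1* inside the cell thus did not pass the test that *Cdh1* passed, and the difference between them was not tested.

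Other keratins and regulators had medians nearest to that of all genes. Of 7 keratins tested, 4 had positive fold changes, with a median of 0.16, none was called by limma, edgeR or DESeq2, and 1 was higher at an unadjusted p under 0.05. The basal keratin *Krt14*, which p63 activates, was at 9.20 and 11.1 CPM in the 2 controls against 7.47 and 9.36 CPM in the 2 mutants, with overlapping groups. *Krt10* and *Krt7* had log2 fold changes of -0.29 and -0.41. Of 19 other epithelial regulators tested, 9 had positive fold changes, with a median of -0.06. None of the 19 was called by any of the 3 tools, and 4 were higher and 1 lower at an unadjusted p under 0.05 in limma. *Tfap2b*, which neural crest cells also express, was at 406 and 384 CPM in the 2 controls against 291 and 287 CPM in the 2 mutants (log2 fold change -0.45, limma adjusted p = 0.152). *Tfap2c* and *Tfap2a* had log2 fold changes of -0.07 and -0.34. These TFAP2 genes were named for their abundance, and *Tfap2b* is the 1 that was lower at an unadjusted p under 0.05. The 4 that were higher were *Grhl1* (1.24), *Rab25* (1.14), *Prom2* (1.09) and *Ap1m2* (0.88), named after their values were seen. Group means of *Grhl1*, *Rab25* and *Prom2* were under 5 CPM.

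Of 10 genes for transcription factors that can repress *Cdh1* or induce mesenchymal identity, 5 fell in limma, against 0.594% of all genes, and 8 had both ca-*Acvr1(A11)* libraries below both control libraries, against 16.8%. The median log2 fold change of the 10 was -0.73. The 5 that fell are genes of facial mesenchyme, and *Twist1* stands in the mesenchymal list as well. Without ca-*Acvr1(A11)* replicate 1, *Snai2* and *Twist1* alone were called, and without control replicate 2, *Snai2* and *Twist2* alone.

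*Snai2*, which encodes SLUG, was at 49.6 and 69.3 CPM in control replicates and 21.2 and 24.8 CPM in mutant replicates. It fell with a log2 fold change of -1.32 (limma adjusted p = 0.000687) and was the 1 gene of this list that DESeq2 called, while edgeR called 5. *Twist1* was at 113 and 205 CPM in the 2 controls against 89.7 and 87.5 CPM in the 2 mutants, with a wide spread between the controls. *Twist1* and its paralog *Twist2* had log2 fold changes of -0.78 and -1.05 and passed the test in limma. *Foxc2* (-0.93, limma adjusted p = 0.0497) and *Gsc* (-2.25, limma adjusted p = 0.00810) also passed, *Gsc* from 14, 19, 1 and 3 reads. The 5 that did not pass include *Snai1* (log2 fold change -0.69) and the zinc-finger repressors *Zeb1* and *Zeb2*, at 0.05 and 0.04, the other 2 being *Tcf4* at -0.17 and *Tcf3* at -0.22. These 5 were named after their values were seen.

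**Figure D4:**
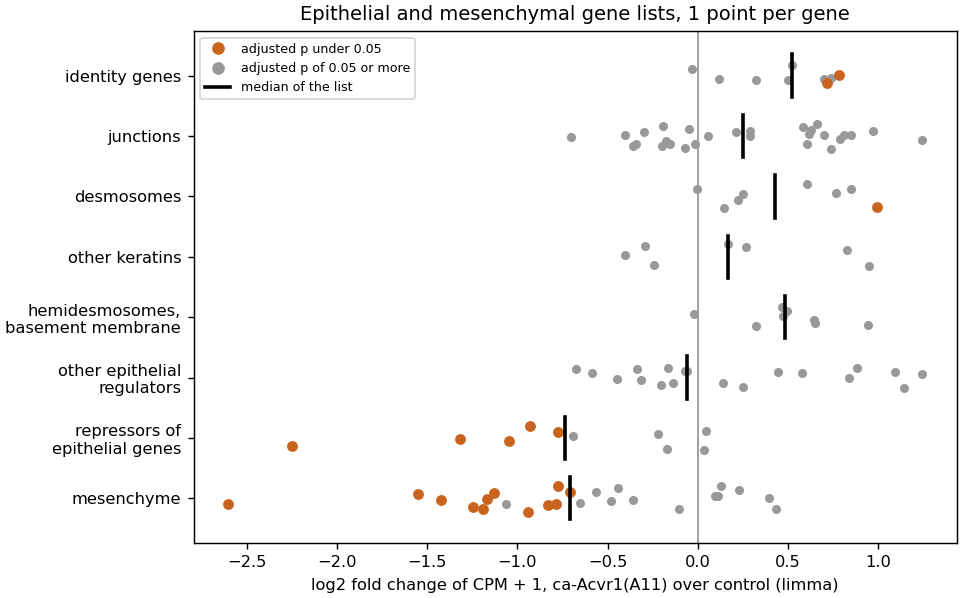
Log2 fold change of CPM + 1 (horizontal axis, ca-*Acvr1(A11)* over control, limma) of each tested gene of 8 lists, with the median as a black line and genes with an adjusted p under 0.05 in orange. The medians of the identity genes (0.52), desmosomes (0.43) and hemidesmosomes and basement membrane (0.48) lie right of 0, that of other epithelial regulators (-0.06) lies near 0, and those of repressors (-0.73) and mesenchyme (-0.71) lie left of 0. Vertical position within a list has no meaning.

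Of 25 mesenchymal genes tested, 12 fell in limma, against 0.594% of all genes, and none rose (2 were higher at an unadjusted p under 0.05), with a median log2 fold change of -0.71. *Pdgfra* and *Pdgfrb*, which are among the 12, have values that are not whole numbers of reads, and without them 10 of 23 were lower, with a median of -0.66. *Col1a2*, a fibrillar collagen gene, was at 540.2 and 617 CPM in control replicates and 246 and 240.1 CPM in mutant replicates (log2 fold change -1.25, limma adjusted p = 1.75e-06). Fold changes were positive for 6 of the 25, which are named after their values were seen. *Cdh2*, which encodes N-cadherin, the cadherin of mesenchymal and neural cells, was at 101 and 86.6 CPM in the 2 controls. In the 2 mutants it was at 133 and 121 CPM (log2 fold change 0.43, limma adjusted p = 0.299). *Sparc* (0.39), *Vim* (0.23), *Dcn* (0.13), *Fn1* (0.11) and *Fbn2* (0.10) were the others.

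Measured against mesenchymal genes in the same library, the identity genes were further apart between the groups. The sum over the mesenchymal genes with whole reads was 3628 and 4104 CPM in the 2 controls against 2928 and 3069 CPM in the 2 mutants. Per 1000 CPM of this sum, the 9 identity genes held 73.9 and 60.4 CPM in the 2 controls against 144 and 124 CPM in the 2 mutants, a ratio of means of 1.99. The groups did not overlap. The mesenchymal sum was itself lower in mutants (ratio of means 0.776), so the wider gap was fixed in advance and is no separate evidence. No gene in either sum was at 0 in all 4 libraries.

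The summed levels of some other cell types were also higher in both mutant libraries. Of 8 macrophage markers, 2 were higher in limma, against 0.305% of all genes (*Cx3cr1* and *Mrc1*, with adjusted p of 0.0143 and 0.0411). edgeR called 2 of the 8 and DESeq2 called 0, with 2 at an unadjusted p under 0.05. The summed level of the 8 was 50.6 and 51.9 CPM in control replicates and 85.9 and 125 CPM in mutant replicates. Of 8 neural markers, all 8 had positive fold changes and none was called by limma, edgeR or DESeq2 (4 were higher at an unadjusted p under 0.05), and their sum was 1154 and 1163 CPM in the 2 controls against 1431 and 1560.1 CPM in the 2 mutants. For 6 olfactory placode markers the sum was 402 and 390 CPM in control replicates and 543 and 460 CPM in mutant replicates, with none called by the 3 tools and 2 higher at an unadjusted p under 0.05.

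Endothelial and erythroid markers did not separate in this way. Endothelial markers summed to 183 and 184 CPM in the 2 controls against 188 and 175 CPM in the 2 mutants, and the 5 erythroid markers with values to 7007 and 8468 CPM and to 6694 and 7186 CPM. No marker of either type was called by the 3 tools, and 0 had an unadjusted p under 0.05 in limma. None of the endothelial or neural markers was at 0 in all 4 libraries. The part of cell composition in the higher level of the identity genes was not tested.

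The median profile of the 9 genes over the 4 libraries, centred on its mean, was compared with that of 8347 other genes above a mean of 10 CPM. The nearest were *Slc25a23*, *Gad2*, *Nat10*, *Asxl2* and *Zcchc7*, with root-mean-square distances between 0.0352 and 0.0448 on the log2 scale. In total, 109 genes lay within 0.1. With 4 libraries a small distance is easily reached, none of the 5 was called by limma, and their log2 fold changes ran from 0.45 to 0.59.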

How the data were processed

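Bulk RNA-Seq libraries of E11.5 NP tissues, 2 per group, were analyzed. The authors made them with the QuantSeq 3′ kit and deposited CPM values for 13577 genes in 4 columns, with 33470 empty lines. The submitters' processing notes name STAR, featureCounts 1.6.4, DESeq2 and mm10. Over all libraries, 99.92% of values were whole multiples of the value of 1 read in their library (tolerance 0.02 reads), which gave the reads behind each value. The 22 genes with other values include none of the 9 epithelial genes. Total reads were 1956831 and 2252586 in control and 2408827 and 2137027 in ca-*Acvr1(A11)* replicates 1 and 2, so a gene near 5 CPM rests on about 10 reads.

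The planned test was limma 3.58.1 (R 4.3.3) on log2(CPM + 1) for genes with a mean above 1 CPM, with its trend option (variance as a function of the mean) and a Benjamini-Hochberg threshold of 0.05. Simulated data with a common dispersion for all genes served only to see that large known changes were recovered. They do not check the calls made here. As alternatives, edgeR 4.0.16 and DESeq2 1.42.0 were run on the recovered reads, without the 22 genes, beside other scalings, filters, pseudocounts, a replicate block and the omission of each library. Python 3.11.15, pandas 2.3.3, numpy 2.4.6, scipy 1.17.1 and matplotlib 3.10.9 were used. Coordinates are from GENCODE's annotation of GRCm38 and promoter sequences from RefSeq on GRCm38.p6.

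The 9 genes and all lists were chosen with earlier results of these data known. The lists were written by hand from known roles, and symbols without values were not analysed here. Genes were named as follows: all 9 identity genes, of each other list every gene called or otherwise the 3 with the highest mean CPM, and the 5 with the profile most like that of the 9 among genes above 10 CPM. A gene under this rule is not reported here. Groups follow the sample titles. Replicates correlated with r = 0.976 (control) and 0.978 (mutant) (log2 values, across genes). No list was tested as a set, no library was left out of the planned test, and 0 columns of values were unused.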

Additional observations from a re-analysis of the deposited data

How the results depend on the processing

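With 2 libraries per group the calls depended on how the variance was estimated. In limma without the trend, 0 genes were called in either direction (594 higher and 432 lower at an unadjusted p under 0.05), hence 0 of the 9 identity genes, 0 of the other epithelial genes and 0 mesenchymal genes, with *Cdh1* at 0.78 and *Epcam* at 0.72 on the log2 scale (adjusted p = 0.448 for both). DESeq2 called 7 genes higher and 25 lower (129 and 220 unadjusted), 0 identity genes, 0 other epithelial and 6 mesenchymal genes, with *Cdh1* at 0.75 and *Epcam* at 0.69. Same-numbered libraries deviated together with a correlation of 0.067, so the numbers were not taken to pair them. The fit with a replicate block called 97 genes higher and 132 lower, against 38 and 74 without it, with 4 other epithelial genes, and changed no call among the 9. Without a filter, 2 other epithelial genes were called. The median log2 fold change of all other epithelial genes tested was 0.19 with edgeR and 0.14 above a mean of 5 CPM, against 0.26 in the planned test. *Krt8* turned to 0.018 with edgeR. The median of the 9 ran from 0.49 to 0.54 over these settings.

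Leaving out each library in turn, with the lone library assumed to vary like the others, gave 31 to 240 genes higher and 54 to 225 lower, 0 to 3 identity genes, 0 to 6 other epithelial and 8 to 15 mesenchymal genes called. Without control replicate 1, 240 genes were higher and 225 lower, 6 of them other epithelial genes, and without control replicate 2, 60 were higher. Medians ran from 0.52 to 0.65 for the 9, from 0.20 to 0.33 for other epithelial genes and from -0.89 to -0.45 for mesenchymal genes. Log2 fold changes ran from 0.60 to 0.97 for *Cdh1*, 0.59 to 0.84 for *Epcam*, 0.52 to 0.87 for *Krt18*, -0.39 to 0.33 for *Krt8* and -0.16 to 0.40 for *Trp63*. The cause of these changes was not tested. *Krt8* and *Cldn7* rest on 10 to 25 reads per library.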
